A study of Bos taurus with 79 samples.

Results

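SLC39A2 (gene ID 508989 in the platform annotation) encodes ZIP2, a zinc transporter of the plasma membrane. On the bovine Affymetrix array it was read by 1 probe set, the only one annotated with that single symbol among 24016 bovine probe sets, which name 9155 genes. The gene was chosen because its level differed between days 7 and 13 in cyclic heifers with normal progesterone, so that contrast is described here without a test. ZIP proteins, the SLC39 family, bring zinc into the cytosol from outside the cell or from organelles. ZnT proteins, the SLC30 family, carry it out of the cytosol, and metallothioneins bind zinc inside the cell. ZIP2 has been studied chiefly in human and mouse tissues, among them the human epidermis, where keratinocytes use it as they differentiate. In the uterus, luminal and glandular epithelium secretes the fluid that feeds the conceptus before it attaches, under the control of progesterone from the corpus luteum.

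Endometrium came from synchronized cross-bred beef heifers slaughtered at 4 times of the cycle or of early pregnancy, days 5, 7, 13 and 16, with 1 array for each of 79 heifers' samples. PH heifers were pregnant and carried a progesterone releasing intravaginal device (PRID), PN heifers were pregnant without one, CH heifers were cyclic with the device, and CN heifers were cyclic without it. Pregnancy followed insemination and was verified per the labels, and the device went in on day 3 and stayed until slaughter, raising circulating progesterone for a time. Each of the 16 groups of day and treatment held 5 arrays, except CH on day 7 with 4. All groups share the synchronization.

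The strips of endometrium hold several cell types, and in such bulk tissue fewer cells of a type and less RNA per cell cannot be told apart. All 11 epithelial and 9 stromal markers were measured, and EPCAM of the epithelium (mean log2 value 12.94), DCN of the stroma (14.04) and HOXA10 of the reproductive tract (9.72) were high. The defining markers KRT8 (2.23), ESR1 (2.50) and PGR (2.78) sat near the low end of the values, where 32.2% of probe sets had a mean under 3 and where differences are compressed. From day 5 through days 7 and 13 to day 16 the mean of the epithelial markers was 8.31, 8.35, 8.59 and 8.70, that of the stromal markers 11.2, 11.0, 11.0 and 10.9, and that of 7 smooth muscle markers 8.96, 8.30, 8.09 and 7.75. That of 6 endothelial markers was 4.84, 4.83, 5.29 and 5.27, higher on the same 2 days as SLC39A2, and that of 8 leukocyte markers was 5.56, 5.08, 5.22 and 5.35. The part of these shifts in SLC39A2 was not tested. Smooth muscle markers stood above a mean of 10 in 3 arrays, which were day 5 PN 4, day 7 PH 5 and day 13 PH 4 (group, then replicate number). The arrays day 7 CH 3 and day 13 PH 1 had a narrow spread of values. Those 2 arrays, day 13 PH 4, day 5 CH 3 and day 7 CN 5 lay far from their group means. Leukocyte markers averaged 8.52 in day 5 CH 3, against a day 5 median of 5.44, beside the highest SLC39A2 value of day 5, 4.86. In day 16 PH 5, labelled pregnant, the mean of 7 interferon-induced genes (MX1, MX2, ISG15, RSAD2, IFI44, IFIT2 and USP18) was 8.04, against 11.0 to 12.0 in the other day 16 PH arrays, and that list was drawn up with these data known. The highest such mean before day 16 was 9.97, in day 7 CN 1, a cyclic heifer. The highest of the day 16 cyclic arrays was 5.67.

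SLC39A2 was low on days 5 and 7 and high on days 13 and 16 in all 4 treatments. On day 5 the lowest, median and highest of 20 arrays were 1.66, 2.48 and 4.86 on the log2 scale, and on day 7 those of 19 arrays were 1.82, 3.55 and 4.95. On day 13 they were 8.62, 10.86 and 11.99, and on day 16 they were 7.54, 10.26 and 12.48, each over 20 arrays. No array of the 2 earlier days reached any array of the 2 later days. Of the sum of squares of SLC39A2 over all arrays, 93.0% lay between days, 1.32% between the treatments within a day and 5.65% within groups. Values under 3 were found in 14 of 20 arrays on day 5 and in 6 of 19 on day 7, and in 0 of 20 on each later day.

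**Figure D1:**
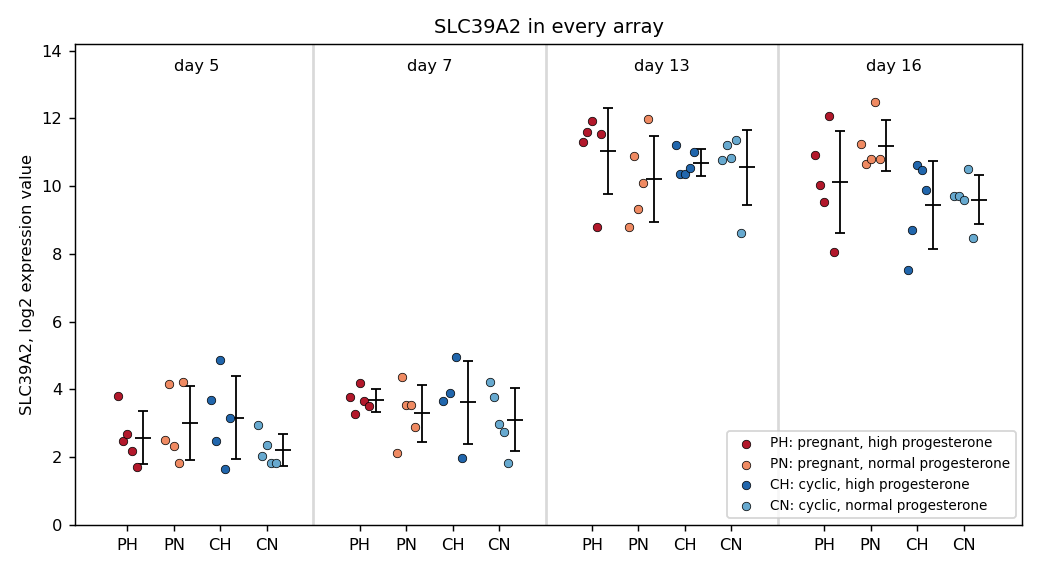
Log2 value of SLC39A2 (vertical axis) in each of 79 arrays, by day and treatment (horizontal axis), with the group mean and SD as bars. All arrays of days 5 and 7 lie at or under 4.95, and all arrays of days 13 and 16 lie at or above 7.54.

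On day 5 the PH arrays (replicates in order) read 3.81, 2.49, 2.68, 2.19 and 1.72, and the PN arrays 2.51, 4.15, 2.34, 1.83 and 4.22. The CH arrays of that day read 3.70, 2.47, 4.86, 1.66 and 3.15, and the CN arrays 2.96, 2.02, 2.36, 1.84 and 1.84. The 4 groups overlapped, and CN was the only one with no array above 3. On day 7 the PH arrays read 3.77, 3.27, 4.18, 3.64 and 3.50, and the PN arrays 2.13, 4.38, 3.55, 3.53 and 2.90. The 4 CH arrays of day 7, replicates 2 to 5, read 3.66, 3.89, 4.95 and 1.97, and the CN arrays 4.21, 3.78, 2.99, 2.74 and 1.82. All 4 groups overlapped again, with the narrowest spread in PH.

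On day 13 the PH arrays read 11.31, 11.60, 11.93, 8.79 and 11.53, and the PN arrays 8.79, 10.89, 9.32, 10.10 and 11.99. The CH arrays read 11.21, 10.36, 10.37, 10.55 and 11.02, and the CN arrays 10.77, 11.21, 10.83, 11.35 and 8.62. The groups overlapped, and 1 PH array and 1 CN array sat well under the other 4 of their group. On day 16 the PH arrays read 10.92, 10.04, 9.54, 12.07 and 8.05, and the PN arrays 11.24, 10.66, 10.80, 12.48 and 10.80. The CH arrays read 7.54, 8.71, 10.61, 10.48 and 9.90, and the CN arrays 9.72, 9.71, 9.59, 10.52 and 8.48. PN was the highest group on that day, and its lowest array lay just above the highest array of either cyclic group.

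Ordered by mean, the 16 groups fell into a lower and an upper block of 8. The lower block ran from day 5 CN (2.20 ± 0.47, SD, n = 5) through day 5 PH (2.58 ± 0.78), day 5 PN (3.01 ± 1.10), day 7 CN (3.11 ± 0.93), day 5 CH (3.17 ± 1.22), day 7 PN (3.30 ± 0.84) and day 7 CH (3.62 ± 1.23, n = 4) to day 7 PH (3.67 ± 0.34). The upper block began with day 16 CH (9.45 ± 1.31), day 16 CN (9.60 ± 0.73) and day 16 PH (10.12 ± 1.50). It went on with day 13 PN (10.22 ± 1.27), day 13 CN (10.56 ± 1.11), day 13 CH (10.70 ± 0.39) and day 13 PH (11.03 ± 1.27) and ended with day 16 PN (11.19 ± 0.75). The gap between the blocks was 5.77. Every other pair of neighbours in this order was closer than the larger SD of the pair and overlapped in its arrays. Within a day the 4 group means spanned 0.96 on day 5, 0.56 on day 7, 0.81 on day 13 and 1.75 on day 16, beside a pooled SD within groups of 1.01.

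The first question was how SLC39A2 changed between successive days of the cycle and of early pregnancy. Differences are in log2 units ± SE of a limma fit of the group means of all arrays, with 1 spread per probe set shared by the 16 groups and p adjusted by Benjamini-Hochberg over 24016 probe sets, at a threshold of 0.05. SLC39A2 rose between days 7 and 13 in PH, PN and CH heifers. On day 13 it was higher than on day 7 by 7.36 ± 0.63 in PH (95% interval 6.10 to 8.62, limma adjusted p = 4.19e-14), by 6.92 ± 0.63 in PN (5.66 to 8.18, adjusted p = 1.62e-13) and by 7.08 ± 0.67 in CH (5.75 to 8.42, adjusted p = 9.86e-13). These differences correspond to 164-fold, 121-fold and 135-fold on the linear scale. In CN heifers, the contrast that chose the gene, the difference was 7.45 ± 0.63. Since the day 7 values lay near the lower end of the scale, where differences are compressed, all 4 may be smaller than the change in RNA.

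In each treatment every day 13 array lay above every day 7 array. That was so for 3.59% of all probe sets in PH, 7.86% in PN, 9.28% in CH and 5.94% in CN, and limma called 5.35% of all probe sets higher in PH, 8.79% in PN, 12.7% in CH and 8.04% in CN. Exact two-sided permutation tests over the arrays gave p = 0.00794 in PH and in PN and p = 0.0159 in CH. These are the smallest values that 5 against 5 and 5 against 4 arrays allow, and adjusted over the 19 exact tests made of SLC39A2 they were 0.0754, 0.0754 and 0.101. In PH the difference was 7.88 without the muscle-rich arrays and 8.01 without the arrays far from their group means.

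Neither of the other steps passed the threshold in any treatment. On day 7 against day 5 the difference was 1.09 ± 0.63 in PH (limma adjusted p = 0.429), 0.29 ± 0.63 in PN (0.872), 0.45 ± 0.67 in CH (0.658) and 0.91 ± 0.63 in CN (0.829). In PH 4 of the 5 day 7 arrays lay between 3.27 and 3.77, and 1 day 5 array, at 3.81, was above them. The exact two-sided p of that step was 0.0397, or 0.151 adjusted over the 19 tests. On day 16 against day 13 the difference was -0.91 ± 0.63 in PH (adjusted p = 0.582), 0.98 ± 0.63 in PN (0.772), -1.25 ± 0.63 in CH (0.517) and -0.95 ± 0.63 in CN (0.840). The 2 days overlapped in each treatment, so SLC39A2 stayed in the high block through day 16, with intervals of these differences that reach from -2.51 to 2.24.

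**Figure D2:**
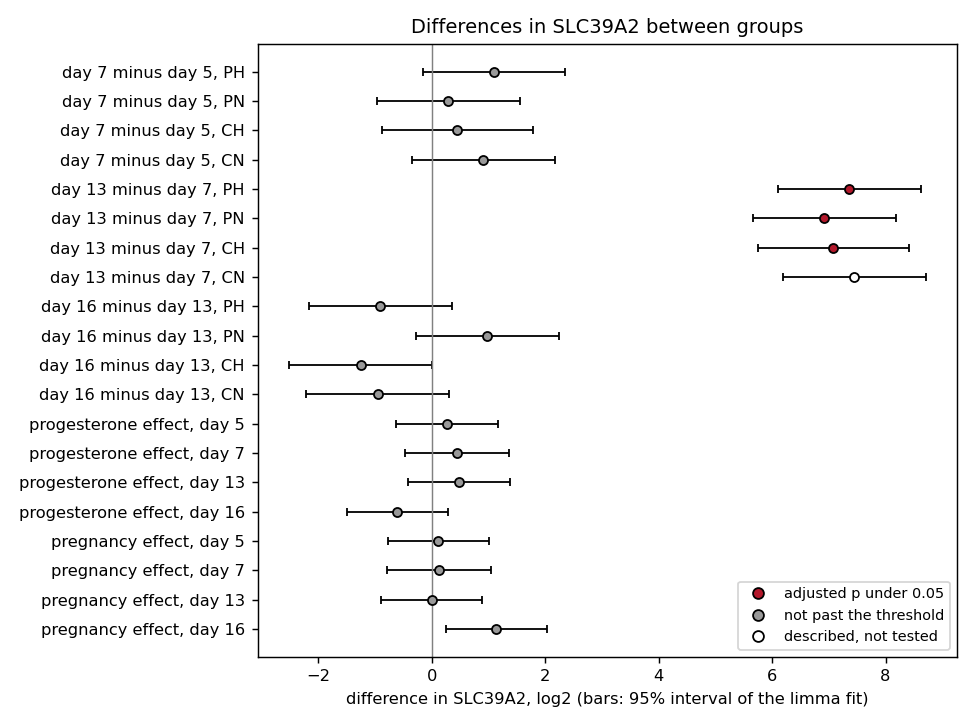
Differences of SLC39A2 in log2 units (horizontal axis) with 95% intervals of the limma fit as bars, for each comparison between days, the progesterone effect and the pregnancy effect (vertical axis). The 4 differences between days 13 and 7 lie between 6.92 and 7.45, and all others lie between -1.25 and 1.13.

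The second question was whether the progesterone device altered SLC39A2, taken as high minus normal progesterone, averaged over the pregnant and cyclic arms. The difference was 0.27 ± 0.45 on day 5 (95% interval -0.62 to 1.16, limma adjusted p = 1.00), 0.44 ± 0.46 on day 7 (-0.48 to 1.36, 0.666), 0.48 ± 0.45 on day 13 (-0.41 to 1.37, 0.902) and -0.61 ± 0.45 on day 16 (-1.50 to 0.28, 0.548). None passed the threshold, and limma called 0.908%, 4.7%, 0.441% and 0.0958% of all probe sets on days 5, 7, 13 and 16. The high and the normal progesterone arrays overlapped on every day. On day 7, when many probe sets were called, the SLC39A2 arrays ran from 1.97 to 4.95 with the device and from 1.82 to 4.38 without it. These intervals admit differences of over 1 log2 unit, and the values do not show that progesterone left the gene alone. The effect on day 16 minus that on day 13 was -1.09 ± 0.63 (adjusted p = 0.893).

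The third question was whether pregnancy altered SLC39A2, taken as the mean over both progesterone levels of pregnant minus cyclic. The difference was 0.11 ± 0.45 on day 5 (95% interval -0.78 to 1.00, limma adjusted p = 0.949), 0.12 ± 0.46 on day 7 (-0.80 to 1.04, 0.946) and -0.00 ± 0.45 on day 13 (-0.90 to 0.89, 0.999). On day 16, when the elongated conceptus of cattle secretes interferon tau as the signal of pregnancy, it was 1.13 ± 0.45 (0.24 to 2.03). The adjusted p was 0.184, above the threshold, while the unadjusted p was 0.0134 and limma called 2.13% of all probe sets higher. The 10 pregnant arrays of day 16 ran from 8.05 to 12.48, and the 10 cyclic arrays from 7.54 to 10.61. The exact two-sided permutation p within progesterone levels was 0.0375 (n = 10 against 10), or 0.151 adjusted over the 19 tests.

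At normal progesterone the day 16 difference was 1.59 ± 0.63 (limma adjusted p = 0.528), with every PN array (10.66 and above) over every CN array (10.52 and below), as was the case for 1.2% of all probe sets. At high progesterone it was 0.68 ± 0.63 (adjusted p = 0.542), and PH and CH arrays overlapped. The lowest pregnant value, 8.05, was that of PH 5, the array with the low interferon-induced genes named above. Without PH 5 the day 16 difference was 1.39 with a limma adjusted p of 0.0489, the only 1 of 20 omissions of a single array that brought it past the threshold. Leaving out the lowest pregnant array was bound to raise the difference, so this omission gives the pregnancy effect no support. The pregnancy effect on day 16 minus that on day 13, a contrast added after the values were seen, was 1.14 ± 0.63 (adjusted p = 0.741). The interaction of pregnancy and progesterone was -1.39 ± 0.89 on day 5, -0.13 ± 0.92 on day 7, 0.67 ± 0.89 on day 13 and -0.91 ± 0.89 on day 16, with limma adjusted p of 0.696 and above.

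The other genes of zinc transport and storage were read from a list of 30 symbols, of which 21 were measured and 20 are not SLC39A2. They comprised 12 further ZIP importers, 4 ZnT exporters, 3 metallothioneins and the metal-sensing transcription factor MTF1, with 1 probe set per gene. Over the 16 group means SLC39A2 spanned 8.99 log2 units. The next widest were the metallothionein MT1A with 3.06, the importer SLC39A8 with 2.52 and the importer SLC39A14 with 1.73. SLC39A3, SLC39A4, SLC39A5, SLC39A12 and SLC30A2 had a mean under 3, so their small spans carry little information.

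**Figure D3:**
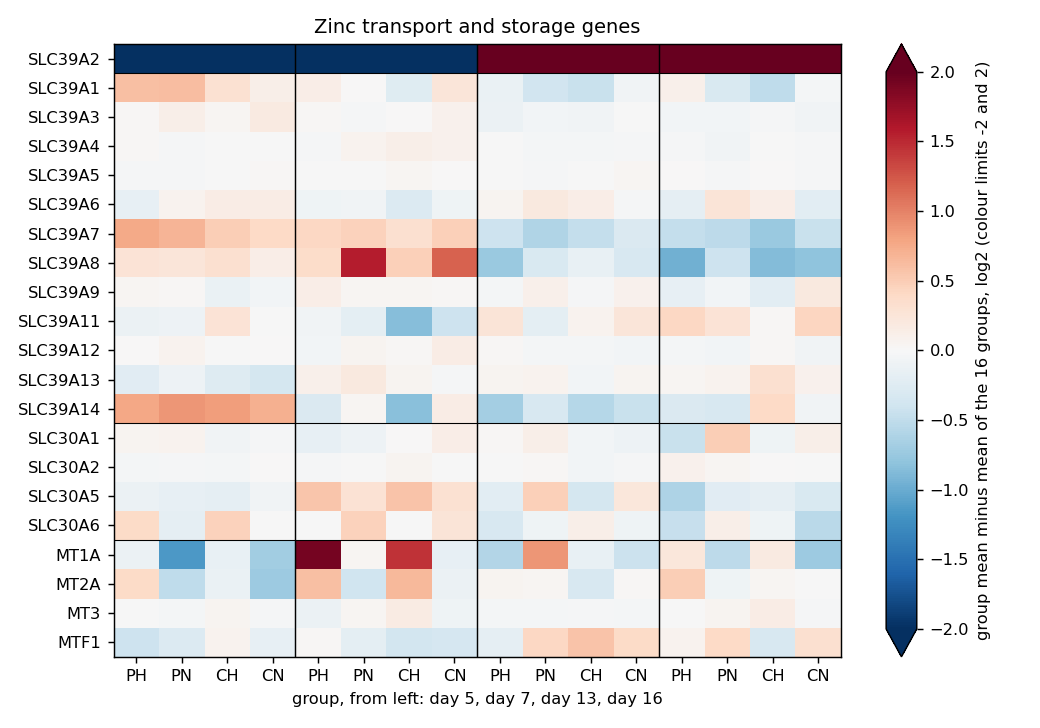
Group mean minus the mean of the 16 groups, in log2 units (colour, clipped at -2 and 2), for SLC39A2 and 20 other zinc genes (rows) over the groups (columns). SLC39A2 is past both colour limits, low on days 5 and 7 and high on days 13 and 16, while SLC39A7 has the opposite order at a smaller size.

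On day 13 against day 7 more of the other zinc genes fell than rose in each treatment, as did more of all probe sets. Limma called 8.39% of all probe sets lower in PH, 9.59% in PN, 13.9% in CH and 8.19% in CN, beside the shares called higher given above. In PH 0 of the 20 other genes rose and 4 fell by limma, 20% against 13.7% of all probe sets, with a median difference of -0.15 against 0.04. In PN 0 rose and 2 fell (10% against 18.4%, median -0.02 against -0.02), in CH 2 rose and 3 fell (25% against 26.6%, median -0.09 against -0.04) and in CN 1 rose and 2 fell (15% against 16.2%, median -0.09 against -0.01). The share of the list that was called was thus near or under the share of all probe sets, apart from a modest excess in PH. Without the array day 7 PH 4 the count in PH was 2.

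Among the importers SLC39A7, which releases zinc from the endoplasmic reticulum, fell in all 4 treatments. Its difference was -0.83 ± 0.16 in PH (limma adjusted p = 1.01e-04), -1.07 ± 0.16 in PN (4.02e-07), -0.79 ± 0.17 in CH (3.25e-04) and -0.77 ± 0.16 in CN (2.23e-04). Its group means were 7.53 to 7.83 on day 13, against 8.44 to 8.61 on day 7, and every omission of a single array kept the 4 calls. SLC39A8, a plasma membrane importer of zinc and manganese, fell by 1.11 ± 0.35 in PH (limma adjusted p = 0.0236), by 1.87 ± 0.35 in PN (3.96e-05) and by 1.50 ± 0.35 in CN (0.0012), and its difference in CH was -0.62 (0.209). In PH 5 of 10 omissions of a single array, day 7 PH 1, 2 and 4 and day 13 PH 2 and 3, ended the call, with an adjusted p of up to 0.0933. SLC39A11, a further ZIP family member, rose by 0.93 ± 0.21 in CH (limma adjusted p = 7.48e-04) and by 0.66 ± 0.20 in CN (0.0157). The CN call was lost without day 7 CN 2 or day 13 CN 3, and with array weights the CH difference was 0.42 (0.125).

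Among the exporters SLC30A5, which loads zinc into the secretory pathway, fell by 0.76 ± 0.19 in PH (limma adjusted p = 0.00357) and by 0.93 ± 0.21 in CH (4.73e-04), the arms with the device. The metallothionein MT1A fell by 2.51 ± 0.77 in PH (adjusted p = 0.0180), a call lost without the array day 7 PH 4 (0.0536) and without the muscle-rich or the far arrays. In CH the metallothionein MT2A fell (adjusted p = 0.0443) and MTF1, which switches on metallothioneins when zinc is plentiful, rose (0.0265). The MT2A call was lost without any of day 7 CH 4 and 5 and day 13 CH 1, 3 and 4, and the MTF1 call without day 7 CH 3 or day 13 CH 5. Array weights also ended the MT2A call, and omission of the narrow or of the far arrays ended that of MTF1. In a fit of only days 7 and 13, the calls of MT2A, of MTF1 and of SLC39A8 in PH (0.0638) were lost as well.

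Fewer zinc genes were called in the other steps. On day 7 against day 5, 1 of 20 rose in PH, 1 in PN and 1 in CH, 2 fell in CH, and 0 were called in CN, where 2 had an unadjusted limma p under 0.05. That is 5% of the list in PH against 4.87% of all probe sets, 5% against 4.81% in PN, 15% against 15.2% in CH and 0% against 0.0291% in CN. SLC30A5 rose in PH and CH and SLC39A8 in PN, and SLC39A11 and SLC39A14 fell in CH. Omissions of a single array ended the PH call in 6 of 10 cases and the PN call in 3 of 10. In CH 1 of 9 ended the SLC30A5 call, 1 of 9 that of SLC39A14 and 0 of 9 that of SLC39A11. With array weights, however, the SLC39A11 call in CH was lost (limma adjusted p = 0.124). In a fit of only days 5 and 7 the SLC39A8 call in PN was lost (0.0885). On day 16 against day 13 the 1 call was in PN, 5% of the list against 1.79% of all probe sets. It was a fall of SLC30A5 by 0.70 ± 0.19 (limma adjusted p = 0.0409). In 7 of 10 omissions of a single array, and in a fit of only those days, that call was lost. No zinc gene was called then in PH, CH or CN, where limma called 3.64%, 0.333% and 0.666% of all probe sets, and 2, 4 and 1 zinc genes had an unadjusted p under 0.05.

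For progesterone on day 7 SLC39A8 was lower by 0.95 ± 0.26 with the device than without it (limma adjusted p = 0.0181) and MT2A was higher by 0.89 ± 0.25 (0.0257), 10% of the list against the 4.7% of all probe sets given above. MT1A had a difference of 1.74 ± 0.56, which did not pass the threshold (adjusted p = 0.0549). The SLC39A8 call was lost without day 7 CH 3 or day 7 PH 5, both among the arrays standing apart, and that of MT2A without any of day 7 CN 2, CN 5, CH 4, CH 5 or PN 5. On day 13 SLC30A5 was lower by 0.63 ± 0.14 with the device (adjusted p = 0.00933), the only 1 of 20 (5% against 0.441% of all probe sets), and without day 13 CH 3 its adjusted p was 0.0609. The effect on day 13 minus that on day 7 was -0.89 ± 0.20 for SLC30A5 (adjusted p = 0.0065), also 1 of 20, against 1.44% of all probe sets. On days 5 and 16 the device gave 0 calls in limma among the 20, with 2 and 3 at an unadjusted p under 0.05, against 0.908% and 0.0958% of all probe sets called. The day 16 count depended on the fit. With array weights limma called 3 of the 20 lower on day 16, but also 5740 of all probe sets, against 23 without weights. A fit of only the days concerned ended the day 7 calls of SLC39A8 and MT2A and the day 13 call of SLC30A5 (0.171). For pregnancy on day 16, 0 of 20 zinc genes passed in limma, and 0 had an unadjusted p under 0.05, against 3.16% of all probe sets called.

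The genes whose 16 group means were most like those of SLC39A2 were sought among 809 genes whose means spanned at least 2 log2 units. The likeness is Pearson's r over 16 groups, which share their days and arrays, and it is a description. The highest were MEP1B, a subunit of the protease meprin (r = 0.992), IGFBP1, which binds insulin-like growth factors in extracellular fluid (0.991), SLC5A1, the sodium-coupled glucose transporter (0.989), and APOBEC3Z2, an antiviral cytidine deaminase (0.986). RLF, a zinc finger protein, and PCMTD2 (0.983 each), the myosin light chain MYL3 and LGMN, the lysosomal protease legumain (0.980 each), followed. MEP1B averaged 2.50, 3.23, 8.66 and 8.76 on days 5, 7, 13 and 16, and IGFBP1 2.84, 2.91, 9.95 and 10.01, both near the low end on the earlier days. PCMTD2 averaged 8.62, 8.97, 10.40 and 10.31, the narrowest course of the 8.

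The most opposite were ELOVL7, an elongase of long fatty acids (r = -0.984), ODC1, the rate-limiting enzyme of polyamine synthesis (-0.983), UPK1B, a uroplakin (-0.983), and GSTT1, a glutathione transferase (-0.980). UPK1B averaged 11.78, 10.65, 2.97 and 3.23 on days 5, 7, 13 and 16, and ODC1 13.07, 13.32, 10.10 and 10.23. Since 93.0% of the sum of squares of SLC39A2 lay between days, these values of r rest on the contrast of the 2 earlier with the 2 later days.

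**Figure D4:**
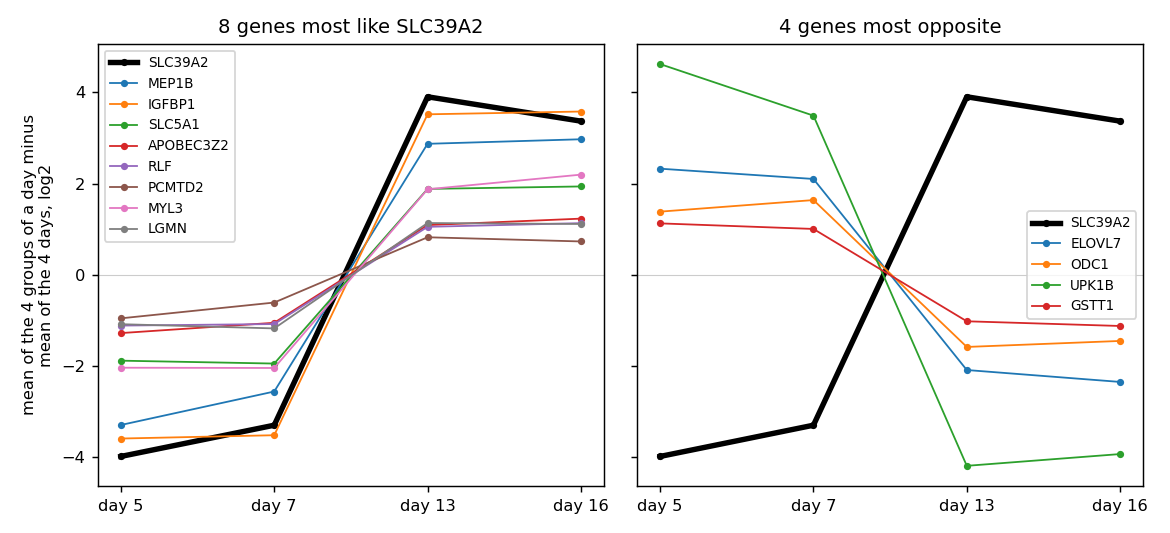
Mean of the 4 groups of a day minus the mean over the 4 days, in log2 units (vertical axis), by day (horizontal axis), for SLC39A2 with the 8 most like genes (left) and the 4 most opposite (right). SLC39A2 and IGFBP1 have the widest courses among the like genes, and UPK1B has the widest among the opposite.

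Within groups the likeness was weaker. Among 1226 genes with a within-group SD of at least 0.5, deviations from the group mean over 79 arrays were most like those of SLC39A2 for the connexin GJB2 (r = 0.502) and the ubiquitin ligase TRIM21 (0.486). LRIF1 (0.469), S100A12, a calcium and zinc binding protein of the S100 family (0.461), the acetyl-CoA synthetase ACSS2 (0.459), the orexin receptor HCRTR1 (0.451), TRIM34 (0.449) and HKDC1, a hexokinase domain protein (0.448), came next. For HKDC1 the r was 0.07, 0.18, 0.70 and 0.66 within days 5, 7, 13 and 16, and for HCRTR1 it was -0.00, -0.17, 0.55 and 0.77, and on days 5 and 7 both genes, like SLC39A2, lay near the low end of the scale, where r says little. Both also followed SLC39A2 over all 79 arrays (r = 0.950 for HKDC1 and 0.946 for HCRTR1), values that include the differences between days. For GJB2 the r was 0.58, 0.69, 0.10 and 0.65 over the same days. GJB2 itself averaged 3.05, 2.99, 2.68 and 3.06 on them, near the low end on every day, so its r says little too.

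Deviations of SLC39A2 from the group mean over the 79 arrays were set against those of the marker means. The r was 0.334 with the epithelial, -0.283 with the stromal and -0.417 with the smooth muscle markers. It was -0.248 with the endothelial markers, 0.185 with the leukocyte markers and 0.324 with the interferon-induced genes. Such deviations leave out differences between days and treatments, but arrays of a group can still differ in tissue makeup. Within the 20 arrays of day 16 the values were 0.472 with the epithelial, -0.566 with the stromal, -0.203 with the smooth muscle and -0.628 with the endothelial markers and 0.578 with the interferon-induced genes. The interferon value includes day 16 PH 5, the lowest of its group in both measures (interferon mean 8.04, SLC39A2 8.05). An r without that array was not taken, so how far the value rests on 1 heifer is not known. On day 13 the smooth muscle value was -0.623 over 20 arrays and -0.275 over 19 without day 13 PH 4. In that array the smooth muscle mean was 12.86 and the epithelial mean 7.91, the lowest of day 13, beside an SLC39A2 value of 8.79. The 2 other low arrays of day 13, PN 1 (8.79) and CN 5 (8.62), had smooth muscle means of 9.45 and 8.27. The part of tissue makeup in these low values was not tested.

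**Figure D5:**
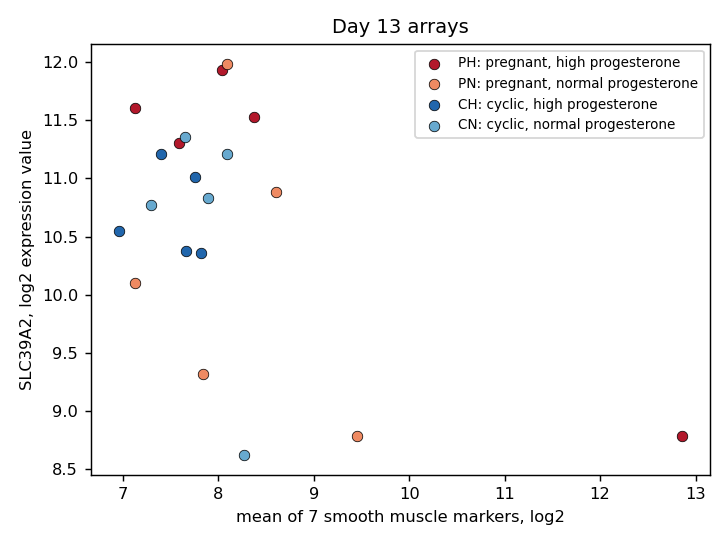
SLC39A2 in log2 units (vertical axis) against the mean log2 value of 7 smooth muscle markers (horizontal axis) in the 20 arrays of day 13. The array at 12.86 is PH 4, with SLC39A2 at 8.79, and the other arrays lie under 10 on the horizontal axis.

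On the cattle assembly ARS-UCD2.0 SLC39A2 lies on chromosome 10 between NDRG2 and METTL17. NDRG2, a member of the N-myc downstream regulated family, was the only one measured of the 4 nearest genes, which also include TPPP2 and RNASE2. It was higher on day 13 than on day 7 in each treatment, by 2.16 ± 0.27 in PH (limma adjusted p = 8.67e-09), 2.96 ± 0.27 in PN (2.46e-13), 1.95 ± 0.29 in CH (4.74e-07) and 2.55 ± 0.27 in CN (6.09e-11). Its group means ran from 10.62 to 10.75 on day 13, against 7.66 to 8.77 on day 7, and over the 79 arrays its r with SLC39A2 was 0.930. That r includes the rise of both genes between days 7 and 13, and an r within groups was not taken for NDRG2. NDRG2 was higher by 0.80 ± 0.20 with the progesterone device on day 7 (adjusted p = 0.00842), where SLC39A2 was not called. It was also higher on day 7 than on day 5 in CH, by 1.18 ± 0.29 (limma adjusted p = 0.00346). At high progesterone on day 16 it was higher in pregnant than in cyclic heifers, by 0.88 ± 0.27 (0.0326). SLC39A2 was not called in those comparisons either. This neighbour was chosen by position after the values of SLC39A2 were known.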

How the data were processed

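Endometrial RNA of 79 heifers was hybridised to 1-colour Affymetrix bovine arrays. The deposited values are log2 expression per probe set (0.95 to 15.37) of 24128 probe sets. The submitters' processing notes list limma, GCRMA and RMA with no versions. Which of GCRMA and RMA made the values is not given in the sources used here. Removing 112 controls left 24016 probe sets, without a filter on level. The platform annotation gave 13292 of them 1 symbol, 86 several and 10638 none, and 13263 gene IDs matched the ARS-UCD2.0 gene table, which changed 0 symbols and served for names and neighbours. Of several probe sets of a gene, that of the highest mean was taken.

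Group means were fitted with limma 3.58.1 (statmod 1.5.0, R 4.3.3) over all arrays, without trend or robust moderation, on 63 residual and 1.49 prior degrees of freedom, and the fit was tested on simulated data. Exact permutation tests were two-sided. The member, lists, likeness rule (the 8 most like and 4 most opposite genes by group means, the 8 most like by deviations) and alternatives were chosen with earlier results of these data known, and the text names SLC39A2, zinc genes, these genes, markers and the neighbour. Same-numbered arrays were not taken as pairs, because the correlation of their deviations averaged 0.0294 on day 5, 0.0467 on day 7, 0.0228 on day 13 and -0.00919 on day 16. Labels call the replicates biological. The number of arrays limits the precision. Python 3.11.15, pandas 2.3.3 and matplotlib 3.10.9 served for tables and plots. No sequences are printed, since none were used here.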

Additional observations from a re-analysis of the deposited data

Results flagged for a closer look

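SLC39A2 in day 13 PH replicate 4 was 8.79, far under the other 4 arrays of its group, of which the nearest was 11.31. The gap was 0.802 of the range of the group, above Dixon's critical value of 0.71 for 5 arrays. In day 13 CN replicate 5 it was 8.62, with the nearest other array at 10.77 and a gap of 0.788 of the range. Chance marks about 1 in 20 groups in this way, and 16 groups were examined, of which 15 held 5 arrays and 1 held 4.

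The progesterone effect on SLC30A5 differed between day 13 and day 7 by -0.89 ± 0.20 (limma adjusted p = 0.0065), a test of the difference itself. The effect was -0.63 ± 0.14 on day 13 and 0.26 ± 0.14 on day 7.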

How the results depend on the processing

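The day 13 minus day 7 difference of SLC39A2 kept its direction and, in PH, PN and CH, its call under all 10 alternatives and every omission of 1 array, with ranges over the omissions of 7.13 to 7.92 in PH, 6.48 to 7.28 in PN and 6.53 to 7.53 in CH, and of 7.12 to 7.93 without a test in CN. Differences near 0 changed sign. The pregnancy effect on day 13, -0.00, was 0.01 (0.0107) after quantile normalization, 0.01 (0.0119) after median centring, 0.10 with array weights, 0.28 without the muscle-rich arrays, 0.32 without the far arrays and 0.33 in the high progesterone arm alone. In 1 arm alone the progesterone effect on day 5 was -0.43 (pregnant) and the pregnancy effect on day 5 was -0.59 (high progesterone). The day 7 minus day 5 difference in PN was -0.01 (-0.00619) without the muscle-rich arrays, and the interaction on day 7 was 0.28 without the far arrays. Omissions of 1 array gave -0.01 to 0.59 for that PN step, -0.0797 to 0.32, -0.15 to 0.34, -0.25 to 0.28 and 0.89 to 1.39 for the pregnancy effect on days 5, 7, 13 and 16, -0.68 to 0.31 for the interaction on day 7, and -0.0461 to 0.45 and -0.24 to 0.32 for the progesterone effect of day 7 minus day 5 and of day 13 minus day 7. The other zinc genes called between days 13 and 7 numbered 2 to 4 in PH over the omissions, and in CH 3 of 20 in a fit of those days, against 5 of 20. Over probe sets above the median level they numbered 3 in CH, but only 10 zinc genes entered that fit. With the replicate number as a block no call of SLC39A2 changed, and the day 13 minus day 7 differences were 7.36 in PH, 6.92 in PN and 7.07 in CH. SLC39A2 has no second probe set to try. The omissions of narrow, muscle-rich and far arrays were added after the data were seen. Values near the low end of the scale and groups of 4 or 5 arrays limit what can be seen on days 5 and 7.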
